A study of Mus musculus with 17 samples.

Results

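The 10 genes described here were the 2 corticosteroid receptors Nr3c1 and Nr3c2, the steroid-activating enzyme Hsd11b1, the receptor co-chaperones Fkbp4 and Fkbp5, the steroid-induced genes Sgk1 and Tsc22d3, and the metallothioneins Mt1, Mt2 and Mt3. They were chosen by name and not by a cutoff on measured values, though earlier results of these data were known when they were chosen. They were 10 of the 48440 gene identifiers in the expression table, and all 10 were among the 14144 genes tested, which are those at a level of 1 TPM or more in at least 8 of the 17 libraries. TPM is a normalised transcript abundance that corrects for transcript length and sets every library to the same total.

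The study asked what immune activation during pregnancy leaves behind in the adult brain. Pregnant C57BL/6J mice received 1 intraperitoneal injection on the gestational day written as G12.5, either of 20 mg/kg poly(I:C), a synthetic double-stranded RNA that sets off an antiviral response, given as its potassium salt in saline, or of saline alone. RNA was taken from the frontal cortex of their male offspring at postnatal day 189, giving 9 libraries in the Poly(I:C) group and 8 in the saline group. The injections were given to the dams. The labels name 11 dams in all and do not tie offspring to litters. If the 17 animals all came from these dams, some must be littermates, and the p-values below treat them as independent.

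The values were TPM, which keep no read depth of their own; the labels state a depth of 25000000 single-end reads of 100 bases but no count for each library, so no counting error is given. The correlation of log2(TPM + 1) between any 2 libraries lay between 0.987 and 0.993, and no 2 libraries were identical. Of the neuron markers, the most abundant, the synaptic protein Snap25, averaged 3215 TPM in the Poly(I:C) group and 3064 TPM in the saline group, and Slc17a7, which marks excitatory neurons of the cortex, 775 and 799 TPM. The library labelled Poly(I:C) replicate 7 stood apart with the highest summed level of 12 striatal markers, 430 TPM against 254 to 284 TPM over the saline libraries, and the highest sum of 12 oligodendrocyte markers, 3424 TPM against 1793 to 2376 TPM. The library labelled saline replicate 7 had the highest sum of the olfactory bulb markers, 427 TPM. The difference of each of the 10 genes is given with and without these libraries. Over all tested genes, Poly(I:C) offspring had lower means for 10039 and higher means for 4105, with a median log2 difference of -0.035. Scaling the libraries by the median of ratios moved that median to -0.0014.

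Glucocorticoids, chiefly corticosterone in mice, cross into brain cells and bind the glucocorticoid receptor, which is held ready in the cytoplasm by heat shock proteins and their co-chaperones and then enters the nucleus to switch genes on or off at glucocorticoid response elements. The mineralocorticoid receptor binds the same steroid with higher affinity, so in the brain it is largely occupied at resting levels while the glucocorticoid receptor fills during stress and at the daily peak. Sgk1, Tsc22d3, Fkbp5 and the metallothioneins Mt1 and Mt2 are induced by glucocorticoids in many tissues, and the metallothioneins are also induced by zinc and other metals through metal response elements in their promoters. Metallothioneins are small cysteine-rich proteins that bind zinc and copper.

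The promoter sequences show which of the induced genes carry the letters of these 2 kinds of element near the start. RefSeq windows on GRCm38.p6 ran from 250 bases before to 50 bases after an annotated start. Nr3c1 was left out of the search, and the other 9 genes had 16 windows. Each was searched on both strands for the core of the metal response element, TGCACNC or TGCGCNC, and for a palindromic form of the glucocorticoid response element, GNACA and TGTNC with 3 bases between them; no match of one motif overlapped a match of another. The 3 metallothioneins lie together on chromosome 8 and are transcribed in the same direction. Their windows are shown because they differ in the number of metal response cores, and that of Sgk1 because it is the other window of these genes with a glucocorticoid match; capitals mark the matches to either motif.
Mt1, chr8:94178839-94179138, plus strand: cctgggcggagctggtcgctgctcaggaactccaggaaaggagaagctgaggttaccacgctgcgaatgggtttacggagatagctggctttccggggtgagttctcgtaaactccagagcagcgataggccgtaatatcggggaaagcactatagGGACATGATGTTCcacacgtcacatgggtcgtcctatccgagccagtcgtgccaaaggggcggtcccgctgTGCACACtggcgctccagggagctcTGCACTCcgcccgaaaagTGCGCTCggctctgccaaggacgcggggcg
Mt2, chr8:94172368-94172667, plus strand: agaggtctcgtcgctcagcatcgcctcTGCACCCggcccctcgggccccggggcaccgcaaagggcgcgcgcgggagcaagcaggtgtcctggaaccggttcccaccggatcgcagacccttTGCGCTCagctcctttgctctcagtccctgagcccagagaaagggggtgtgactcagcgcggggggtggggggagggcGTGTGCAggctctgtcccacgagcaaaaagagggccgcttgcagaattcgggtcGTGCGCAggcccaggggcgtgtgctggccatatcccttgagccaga
Mt3, chr8:94152357-94152656, plus strand: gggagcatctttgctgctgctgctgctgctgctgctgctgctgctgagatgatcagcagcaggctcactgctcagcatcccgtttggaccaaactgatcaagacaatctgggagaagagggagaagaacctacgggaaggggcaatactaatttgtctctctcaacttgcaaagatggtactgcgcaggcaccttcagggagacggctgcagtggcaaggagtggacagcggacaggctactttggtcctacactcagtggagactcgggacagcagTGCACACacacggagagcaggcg
Sgk1, chr10:21993640-21993939, plus strand: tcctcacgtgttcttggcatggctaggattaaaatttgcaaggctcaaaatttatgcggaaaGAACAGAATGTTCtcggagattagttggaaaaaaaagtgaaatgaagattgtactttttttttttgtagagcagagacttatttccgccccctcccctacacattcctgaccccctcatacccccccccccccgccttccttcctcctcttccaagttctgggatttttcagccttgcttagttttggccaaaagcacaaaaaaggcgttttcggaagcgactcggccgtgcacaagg
The Mt1 window held 3 matches to the metal response core and 1 match to the glucocorticoid response pattern. Counted from the RefSeq start, the glucocorticoid match GGACATGATGTTC lay at -94 to -82. The Mt2 window held 4 metal response matches and no match to the glucocorticoid pattern. The Mt3 window held 1 metal response match, at 28 to 34. The Sgk1 window shown, 1 of 6 for that gene, held the glucocorticoid match GAACAGAATGTTC at -188 to -176 and no metal response match. Of 32851 promoter windows of the same length, 0.475% held the glucocorticoid pattern. At least 1 metal response core was found in 25.7% of the windows, at least 3 in 1.97% and at least 4 in 0.517%, so the windows of Mt1 and Mt2 were among the few with that many, while a single match such as that of Mt3 is common. The windows of Fkbp4, Fkbp5 and Tsc22d3 held neither motif, which says only that these letters are not in those windows. A match is a description of the sequence and no measurement of binding.

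On the TPM scale, which allows levels of different genes to be compared, the 10 genes spanned a wide range in frontal cortex. Gene coordinates below are those of the GENCODE annotation of GRCm38. Mt3, the brain-enriched metallothionein, averaged 607 TPM over the 17 libraries and Mt1 521 TPM, with Mt3 above Mt1 in all 17 libraries. Mt2 followed at 80.7 TPM, and its range did not overlap that of Mt1. Mt2 and Fkbp4, both at 80.7 TPM, could not be placed in order, since Mt2 was the higher in 9 of 17 libraries. Sgk1 averaged 58.6 TPM and Tsc22d3 41.9 TPM, with Sgk1 the higher in 16 of 17 libraries. Of the receptors, Nr3c1 averaged 27.1 TPM, below Tsc22d3 in all 17 libraries. Hsd11b1 averaged 15.0 TPM, below Nr3c1 in every library and without overlap of their ranges. At the low end Fkbp5 averaged 11.1 TPM and Nr3c2 10.4 TPM, an order held in 11 of 17 libraries only.

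**Figure D1:**
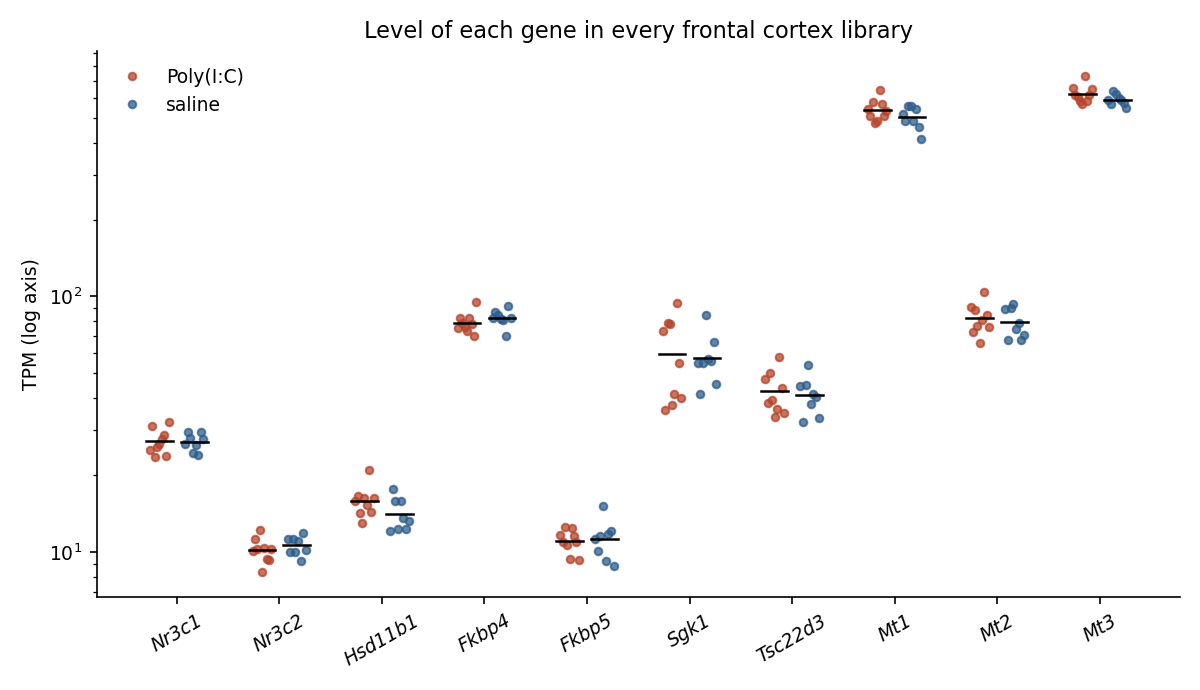
Level of each of the 10 genes in every library, in TPM on a log axis, with Poly(I:C) and saline libraries as separate points and the group means as bars. The metallothioneins Mt3 and Mt1 sit highest near 607 and 521 TPM, Nr3c2 lowest near 10.4 TPM, and the points of the 2 groups overlap for every gene.

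None of the 10 genes passed the test of the prenatal treatment at an adjusted p under 0.05 (limma on log2(TPM + 1), Benjamini-Hochberg over all tested genes). The same fit called 0 of the 14144 tested genes, a background of 0%. At an unadjusted p under 0.05 limma called 0 of the 10 genes against 1237 of all tested genes, or 8.75%, of which the genes called higher made up 0.898% and those called lower 7.85%. A Mann-Whitney test called 0 of the 10 and 1132 of all tested genes at the same unadjusted threshold. The group ranges overlapped for all 10 genes. The share over all tested genes is not given here, so this is not read as particular to the 10. As deposited, the mean after Poly(I:C) was the higher for 6 of the 10 and the lower for 4, with a median log2 difference of 0.024. After median-of-ratios scaling 8 were higher, with a median of 0.061. Over the 14144 tested genes 4105 were higher as deposited and 6942 after that scaling, with medians of -0.035 and -0.0014. The fit was tried on simulated data with the same group sizes, each gene drawn independently from its own mean and residual SD. Each simulation held genes changed by 1.2-fold, 1.5-fold, 2-fold and 3-fold together, 50 at each fold. Of those changed by 1.2-fold 57% were recovered, and of those changed by 1.5-fold 94.2%. Recovery of a small change without the larger ones beside it was not simulated and may be lower. No deviation shared by the genes of a library was simulated, so recovery in the real data may be lower. The changed genes were drawn from the tested genes. Of the 10 genes, 8 had a residual SD above the median tested gene, and recovery for such genes was not simulated separately. Without replicate 7 of both groups the log2 difference was 0.014 for Nr3c1, -0.0044 for Fkbp5, 0.073 for Mt1 and 0.081 for Mt3, and those of the other genes stand with each gene.

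Nr3c1 encodes the glucocorticoid receptor (ENSMUSG00000024431.14, chromosome 18, minus strand). Its level ran from 23.6 through a median of 26.5 to 32.3 TPM in the Poly(I:C) group and from 23.9 through 27.1 to 29.6 TPM in the saline group. The Poly(I:C) libraries spread around the saline libraries on both sides. The groups differed by 0.0063 ± 0.062 (SE) on the log2 scale, with a 95% interval of -0.12 to 0.14 and an adjusted p of 0.980 (limma). Nr3c2 encodes the mineralocorticoid receptor (ENSMUSG00000031618.13, chr8:76899442-77245012, plus strand). It ran from 8.37 through 10.3 to 12.2 TPM in the Poly(I:C) group and from 9.18 through 10.6 to 11.9 TPM in the saline group. The Poly(I:C) libraries held both the lowest and the highest value, and 2 of 9 lay above the saline median. For Nr3c2 the log2 difference was -0.056 ± 0.063 (SE), with a 95% interval of -0.19 to 0.076 and an adjusted p of 0.803. It was -0.021 without replicate 7 of both groups and -0.025 without Poly(I:C) replicate 5, which had the lowest Nr3c2 level. The balance of the receptors, which does not depend on how libraries are scaled, taken as the TPM ratio of Nr3c2 to Nr3c1, averaged 0.379 ± 0.0546 (SD) in the Poly(I:C) group and 0.394 ± 0.0298 in the saline group; an exact permutation test gave a two-sided p of 0.414, or 0.680 adjusted over the 4 ratios tested.

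Hsd11b1 encodes the enzyme that regenerates active corticosterone from its inert 11-keto form inside cells (ENSMUSG00000016194.14, chr1:193221634-193264075, minus strand). It ran from 12.99 through 15.9 to 20.9 TPM in the Poly(I:C) group and from 12.1 through 13.4 to 17.6 TPM in the saline group. Of the 9 Poly(I:C) libraries 8 lay above the saline median, yet 1 saline library lay above 8 of the 9. Its log2 difference of 0.16 ± 0.084 (SE) was the largest of the 10 genes, with a 95% interval of -0.014 to 0.33, an unadjusted p of 0.0693 and an adjusted p of 0.587 (limma), and so did not pass. The highest value came from Poly(I:C) replicate 7, the library with the most striatal and oligodendrocyte marker RNA. Without replicate 7 of both groups the log2 difference was 0.087. In bulk tissue, a difference in the number of cells that express a gene and a difference in RNA per cell cannot be told apart.

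Fkbp4 and Fkbp5 encode FKBP52 and FKBP51, immunophilins that occupy the same place in the receptor complex. The first favours transport of the receptor to the nucleus, and the second lowers its affinity for steroid and is itself induced by glucocorticoids, forming a short feedback loop. Fkbp4 (ENSMUSG00000030357.10, chr6:128429735-128438677, minus strand) ran from 70.3 through 78.3 to 94.9 TPM in the Poly(I:C) group and from 70.2 through 82.3 to 91.5 TPM in the saline group. All but 2 of the Poly(I:C) libraries lay below the saline median, while the highest of all libraries was also a Poly(I:C) library. Fkbp4 had a log2 difference of -0.062 ± 0.053 (SE) with an adjusted p of 0.734 (limma), and it was -0.040 without replicate 7 of both groups. Fkbp5 (ENSMUSG00000024222.16, chr17:28399094-28517527, minus strand) ran from 9.30 through 10.95 to 12.52 TPM in the Poly(I:C) group and from 8.81 through 11.4 to 15.1 TPM in the saline group. The saline libraries held both extremes. For Fkbp5 the log2 difference was -0.012 ± 0.083 (SE) with an adjusted p of 0.973, and its sign turned under several other scalings. The ratio of Fkbp5 to Fkbp4 averaged 0.141 ± 0.0193 (SD) in the Poly(I:C) group and 0.137 ± 0.0266 in the saline group, with an exact permutation p of 0.672.

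Sgk1 encodes a kinase that regulates ion channels and transporters (ENSMUSG00000019970.15, chr10:21882184-21999903, plus strand), and it was the most variable of the 10 genes. It ran from 36.1 through 55.1 to 94.2 TPM in the Poly(I:C) group and from 41.7 through 55.3 to 84.7 TPM in the saline group. The group medians were close, but 4 Poly(I:C) libraries lay below every saline library and 1 lay above them all. The coefficient of variation was 36.9% in the Poly(I:C) group and 22.9% in the saline group; whether the spreads differ was not tested. The residual SD of log2(TPM + 1), 0.44, was higher than that of 98.3% of the tested genes. The log2 difference was -0.011 ± 0.19 (SE), with a 95% interval of -0.40 to 0.38 and an adjusted p of 0.988 (limma). Without replicate 7 of both groups the log2 difference was -0.071.

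Tsc22d3 encodes GILZ, a leucine zipper protein that mediates anti-inflammatory actions of glucocorticoids (ENSMUSG00000031431.13, chrX:140539528-140600659, minus strand). It ran from 33.9 through 39.4 to 58.2 TPM in the Poly(I:C) group and from 32.2 through 41.0 to 53.9 TPM in the saline group. The highest value in each group came from the same library as the highest Sgk1 value, Poly(I:C) replicate 7 and saline replicate 4. The log2 difference was 0.042 ± 0.11 (SE) with an adjusted p of 0.922 (limma), and without replicate 7 of both groups it was -0.016. Its residual SD exceeded that of 90.9% of tested genes. The ratio of Sgk1 to Tsc22d3 averaged 1.37 ± 0.330 (SD) in the Poly(I:C) group and 1.39 ± 0.154 in the saline group, with an exact permutation p of 0.680.

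Mt1 and Mt2 are the widely expressed, inducible metallothioneins, in cortex mostly of astrocytes, while Mt3 is found mainly in the nervous system and responds little to metals or steroids. Mt1 (ENSMUSG00000031765.7, chr8:94179082-94180327, plus strand) ran from 476 through 534 to 642 TPM in the Poly(I:C) group and from 415 through 501 to 558 TPM in the saline group. Of the 9 Poly(I:C) libraries 7 lay above the saline median, and 3 lay above the highest saline library. The log2 difference was 0.0995 ± 0.063 (SE), with a 95% interval of -0.031 to 0.23 and an adjusted p of 0.644 (limma). Mt2 (ENSMUSG00000031762.6, chr8:94172664-94173568, plus strand) ran from 66.0 through 80.6 to 104 TPM in the Poly(I:C) group and from 67.3 through 76.9 to 93.8 TPM in the saline group. Its lowest and highest libraries were both of the Poly(I:C) group. The log2 difference was 0.054 ± 0.084 (SE) with an adjusted p of 0.862, and without replicate 7 of both groups it was -0.020. An antisense gene, Gm45774, overlaps Mt2 and matched 212 of its bases; the library kit keeps strand, and how its reads were assigned was not tested. Mt3 (ENSMUSG00000031760.8, chr8:94152607-94154146, plus strand) ran from 569 through 612 to 732 TPM in the Poly(I:C) group and from 548 through 589 to 635 TPM in the saline group. Its spread was small, with a residual SD above that of only 27.2% of the tested genes. The log2 difference was 0.075 ± 0.044 (SE), with a 95% interval of -0.017 to 0.17 and an adjusted p of 0.629. The ratio of Mt1 to Mt2 was 6.61 ± 0.793 (SD) in the Poly(I:C) group and 6.39 ± 0.527 in the saline group, with an exact permutation p of 0.545.

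**Figure D2:**
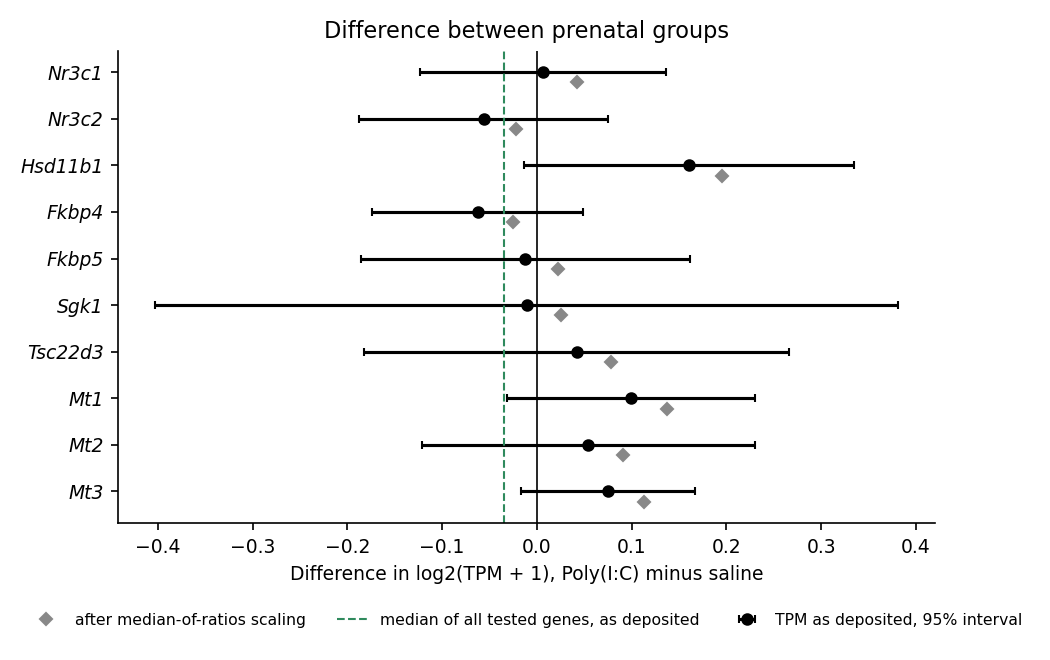
Log2 difference, Poly(I:C) minus saline, of log2(TPM + 1) for each of the 10 genes, with 95% intervals from limma as bars, the value after median-of-ratios scaling as a diamond, and the median of all tested genes as a dashed line. Every interval crosses 0, the widest is that of Sgk1 from -0.40 to 0.38, and the largest estimate is 0.16 for Hsd11b1.

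The wider pathways were described from lists written by name, with counts of genes higher and lower. No gene of any list passed an adjusted p of 0.05. Of 25 tested glucocorticoid-induced genes other than these 10, 11 were higher and 14 lower, with a median log2 difference of -0.011 beside -0.035 over all tested genes. After median-of-ratios scaling 17 of the 25 were higher, with a median of 0.024 beside -0.0014 over all tested genes. The smallest unadjusted p values in that list belonged to Gadd45g, Cebpb and Glul. Gadd45g, a stress-induced gene, averaged 10.8 ± 2.08 TPM (SD) against 13.6 ± 2.82 TPM in the saline group, a log2 difference of -0.30 with an adjusted p of 0.510 (limma). Cebpb, a transcription factor, was at 2.003 TPM against 2.51 TPM, all 9 Poly(I:C) libraries being under the saline median, with an adjusted p of 0.535. Glul, the glutamine synthetase of astrocytes, was at 1550 TPM against 1450 TPM, with an adjusted p of 0.573.

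Among the 16 genes of the heat shock protein complex that holds the receptor, 4 were higher and 12 lower, with a median of -0.028. The Hsp70-interacting protein St13 was at 83.1 ± 8.31 TPM (SD) against 91.9 ± 8.48 TPM, with an adjusted p of 0.545 (limma). The co-chaperone Bag1 was at 82.2 TPM against 86.2 TPM and the immunophilin Ppid at 47.0 TPM against 49.97 TPM, with adjusted p of 0.566 and 0.571. The most abundant of them, the Hsc70 gene Hspa8, averaged 2171 TPM against 2167 TPM. Of the 14 receptor coregulators 2 were higher and 12 lower. The smallest p values were those of the histone deacetylase Hdac3 at 61.4 TPM against 64.7 TPM, the corepressor Ncor1 at 222 TPM against 234 TPM and the corepressor Tle3 at 36.7 TPM against 38.8 TPM. Both splits moved with the scaling: after median-of-ratios scaling 9 of the 16 and 7 of the 14 were higher. Of all tested genes 71.0% were lower as deposited and 50.9% after that scaling, so these splits are not read as particular to the 2 lists. Of 12 genes of corticosteroid supply, 5 were tested and the steroid 21-hydroxylase Cyp21a1 and the corticosteroid-binding globulin Serpina6 were listed at 0 in all libraries. The side-chain cleavage enzyme Cyp11a1 averaged 2.06 ± 0.704 TPM (SD) against 1.58 ± 0.322 TPM, with an adjusted p of 0.624 (limma). H6pd, which supplies cofactor to the enzyme of Hsd11b1, was at 3.07 TPM against 3.25 TPM, and the efflux pumps Abcb1b and Abcb1a were at 1.69 against 1.84 TPM and 10.4 against 10.6 TPM.

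Of the 6 tested genes of the stress axis, 3 were higher and 3 lower. Crhbp, which binds and sequesters corticotropin-releasing hormone, had the smallest unadjusted p of that list, 0.0218; it averaged 20.4 ± 1.56 TPM against 18.6 ± 1.16 TPM, exceeded the middle of the saline values in 8 of 9 libraries and had an adjusted p of 0.535. The receptors Adcyap1r1, for the peptide PACAP, and Crhr1, for corticotropin-releasing hormone, were at 43.2 against 45.5 TPM and 13.5 against 14.3 TPM. Of 25 tested genes of zinc and copper handling, 7 were higher and 18 lower, and after median-of-ratios scaling 14 were higher. The share of all tested genes that were lower was 71.0% as deposited and 50.9% after that scaling. The zinc transporters with the smallest p were Slc30a5 at 14.6 against 15.7 TPM, Slc39a13 at 22.2 against 23.4 TPM and Slc39a12 at 38.2 against 35.6 TPM. The zinc transporter of synaptic vesicles, Slc30a3, averaged 98.3 TPM against 99.4 TPM. Of the 10 tested relatives and substrates of SGK1 and GILZ, 6 were higher and 4 lower; the kinase Sgk3 was at 4.43 TPM against 4.92 TPM, with an adjusted p of 0.569, the SGK1 substrate family member Ndrg2 at 495 TPM against 476 TPM, and Tsc22d4 at 136 TPM against 130 TPM.

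While no group difference passed, several of the 10 genes varied together from animal to animal. After subtracting the mean of each group, 9 of the 45 pairs correlated at an adjusted p under 0.05 over the 17 libraries (Pearson r, permutation within groups, Benjamini-Hochberg over the 45 pairs), all positively and with a positive r in each group. By Spearman's rho 8 of them also passed. The lowest r among these was 0.574, reached by 10 of the 45 pairs and by 4.41% of all pairs of tested genes. Both genes of a pair are read from the same tissue piece and library, so these values describe animals and dissections together.

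The strongest relation joined Tsc22d3 and Mt2, with r = 0.896 and rho = 0.875. The permutation p was 1e-05, the smallest that 100000 resamples can give, or 0.00045 adjusted. It held in each group, with r = 0.929 (exact p = 0.000309) in the Poly(I:C) group and r = 0.858 (exact p = 0.00459) in the saline group. Leaving out the libraries farthest from the median of Tsc22d3, replicate 7 of the Poly(I:C) group and replicate 4 of the saline group, gave r = 0.830. Among the 14143 other tested genes, Mt2 was the second closest to Tsc22d3 and Tsc22d3 the closest to Mt2. These are a gene without either motif in its windows and the metallothionein whose window held 4 metal response matches and none to the glucocorticoid pattern. Whether the motifs bear on this relation was not tested.

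**Figure D3:**
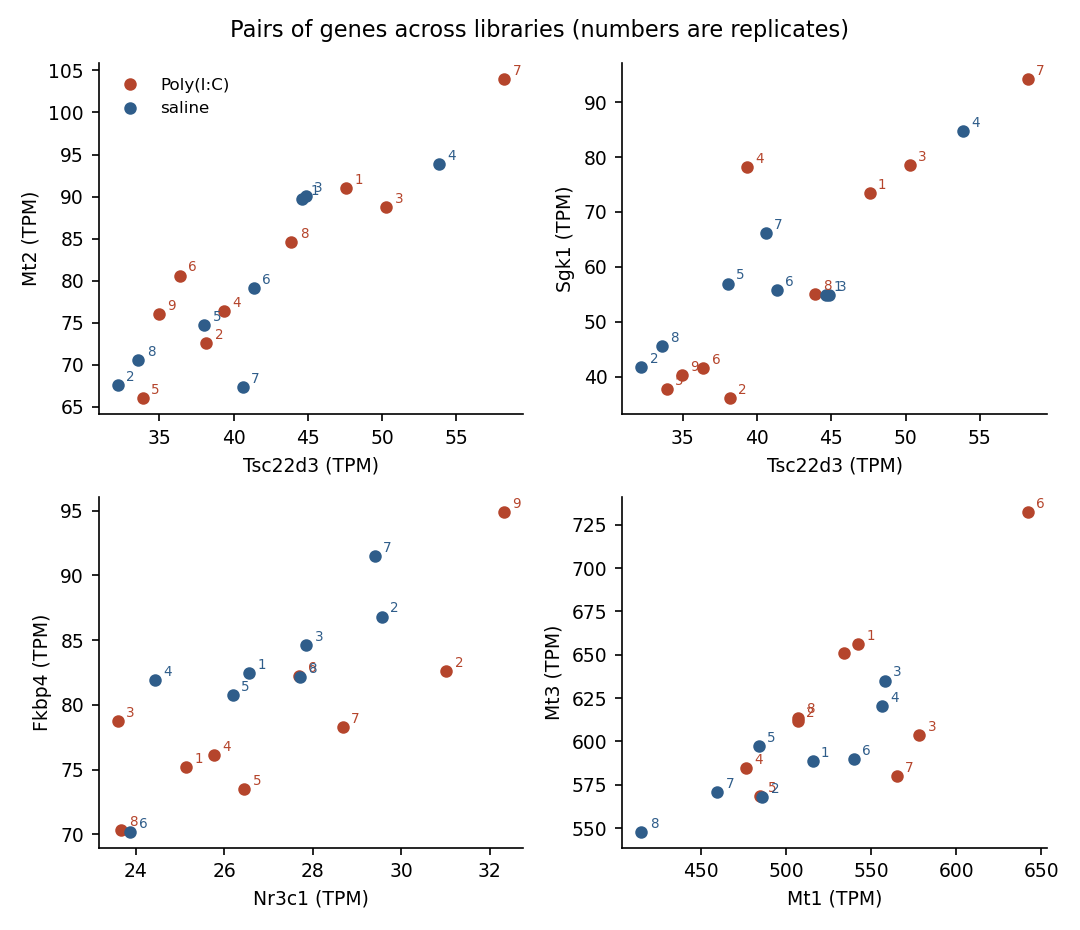
Levels in TPM of Mt2 against Tsc22d3, Sgk1 against Tsc22d3, Fkbp4 against Nr3c1 and Mt3 against Mt1, 1 point for each library, coloured by group and numbered by replicate. In each panel libraries high in one gene tend to be high in the other in both groups; after subtracting group means r is 0.896, 0.845, 0.815 and 0.742.

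Sgk1 and Tsc22d3 varied together with r = 0.845 and rho = 0.804 (permutation p = 3e-05, adjusted p = 0.000675), and r was 0.752 without those same libraries. Sgk1 was among the 8 tested genes closest to Tsc22d3, and Tsc22d3 among the 15 closest to Sgk1. Sgk1 and Mt2 correlated with r = 0.684 (adjusted permutation p = 0.0221), but Mt2 was only among the 208 genes closest to Sgk1. Fkbp5 joined this group through Tsc22d3, with r = 0.726 (adjusted permutation p = 0.009), and through Mt1, with r = 0.685 (adjusted permutation p = 0.0221). The relation of Fkbp5 with Sgk1 was weaker, with r = 0.574 and an adjusted permutation p of 0.0376, and it did not pass by rho (0.551, adjusted permutation p = 0.111). Fkbp5 was only among the 661 tested genes closest to Sgk1. Leaving out saline replicate 4, which had the highest Fkbp5 level of 15.1 TPM and the highest Sgk1 level of its group, took Fkbp5 with Tsc22d3 to an adjusted permutation p of 0.0672. Without that library 4 of the 45 pairs passed, without Poly(I:C) replicate 5 there were 5, and without Poly(I:C) replicate 7 there were 12.

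Mt1 and Mt3 correlated with r = 0.742 and rho = 0.703 (adjusted permutation p = 0.00742), and r was 0.523 once replicate 6 of the Poly(I:C) group and replicate 8 of the saline group were left out, the libraries farthest from the median of Mt1. Mt1 and Mt2, neighbours on chromosome 8 and often taken as one inducible unit, correlated with r = 0.648 (adjusted permutation p = 0.0376), and this call was lost in 12 of 27 alternatives. Mt2 was among the 41 tested genes closest to Mt1, and Mt1 among the 83 closest to Mt2. Mt2 was closer to Tsc22d3 than to Mt1; the difference of the 2 correlations was not tested.

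A separate pair joined the glucocorticoid receptor to its co-chaperone: Nr3c1 and Fkbp4 correlated with r = 0.815 and rho = 0.767 (permutation p = 8e-05, adjusted p = 0.0012). It held within the Poly(I:C) group with r = 0.808 (exact p = 0.00496) and within the saline group with r = 0.841 (exact p = 0.00114), and r was 0.718 without Poly(I:C) replicates 2 and 9. The pair was not the closest for either gene: Fkbp4 was among the 19 tested genes closest to Nr3c1, and Nr3c1 among the 37 closest to Fkbp4. Nr3c1 did not pass with any induced gene, and its r was lowest with Sgk1, -0.50 (adjusted permutation p = 0.224). Hsd11b1 and Nr3c2 were in none of the 9 pairs.

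**Figure D4:**
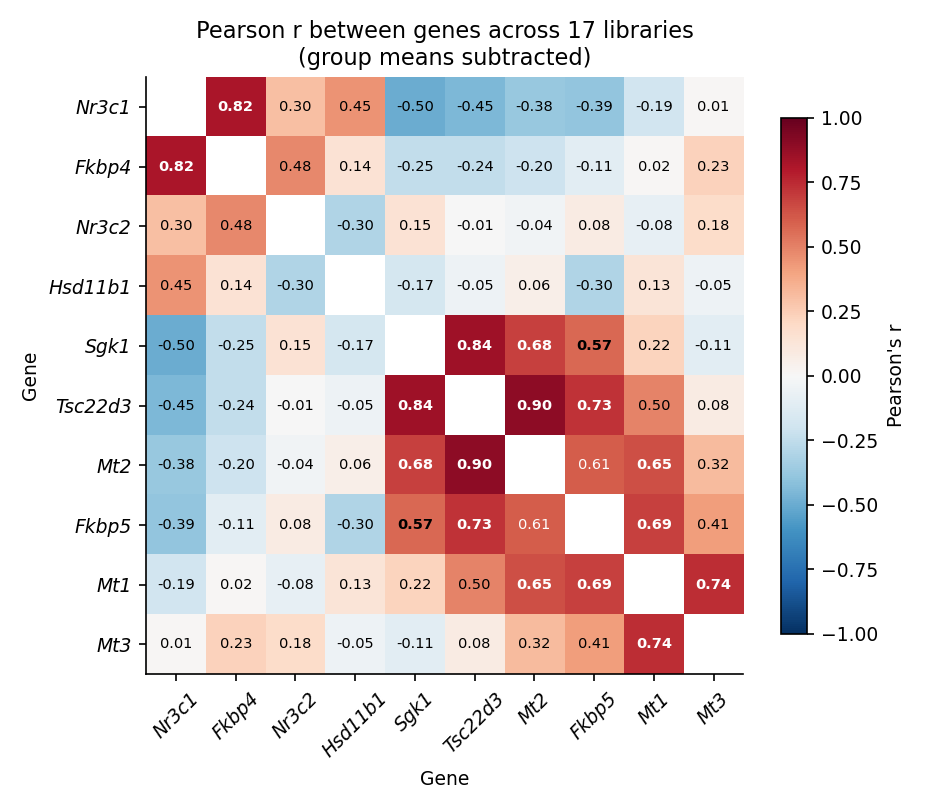
Pearson r for all 45 pairs of the 10 genes after subtracting each group's mean, 17 libraries, with the pairs that passed an adjusted permutation p of 0.05 marked. The called values run from 0.574 to 0.896 and lie among Fkbp5, Sgk1, Tsc22d3 and the metallothioneins, apart from Nr3c1 with Fkbp4 at 0.815.

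The lists written by name were set beside the 10 genes as a description across genes, which are not independent replicates and for which no test was made. Of the 25 tested glucocorticoid-induced genes, 22 had a positive r with Tsc22d3, beside 54.1% of all tested genes. Their median r with Tsc22d3 was 0.585 beside 0.032 over all tested genes. The list's median r was 0.468 with Mt2, 0.424 with Sgk1, 0.361 with Fkbp5 and 0.124 with Mt1. It was -0.021 with Mt3, 12 of 25 genes being positive, and -0.192 with Nr3c1. The genes closest to Tsc22d3 in that list were the lipid droplet protein Plin4 (r = 0.850), the triglyceride lipase Pnpla2 (r = 0.842) and the NF-kappa-B inhibitor Nfkbia (r = 0.818). The list was not uniform: r with Tsc22d3 was -0.359 for Cdkn1a, -0.190 for Errfi1 and -0.130 for the phosphatase Dusp1, also an activity-induced gene. The clock gene Per1 had r = 0.256. Of the 16 chaperone genes all 16 had a positive r with Nr3c1 and all 16 with Fkbp4, with medians of 0.575 and 0.569, but r with Nr3c1 was positive for 68.6% of all tested genes and with Fkbp4 for 72.9%. All 16 were also positive with Nr3c2, with a median of 0.373, beside 75.5% of all tested genes. The Hsp40 protein Dnaja1 (r = 0.724) and the p23 co-chaperone Ptges3 (r = 0.701) were closest to Nr3c1. The 25 zinc and copper genes had a median r near 0 with each metallothionein, -0.069 for Mt1, -0.040 for Mt2 and 0.056 for Mt3.

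**Figure D5:**
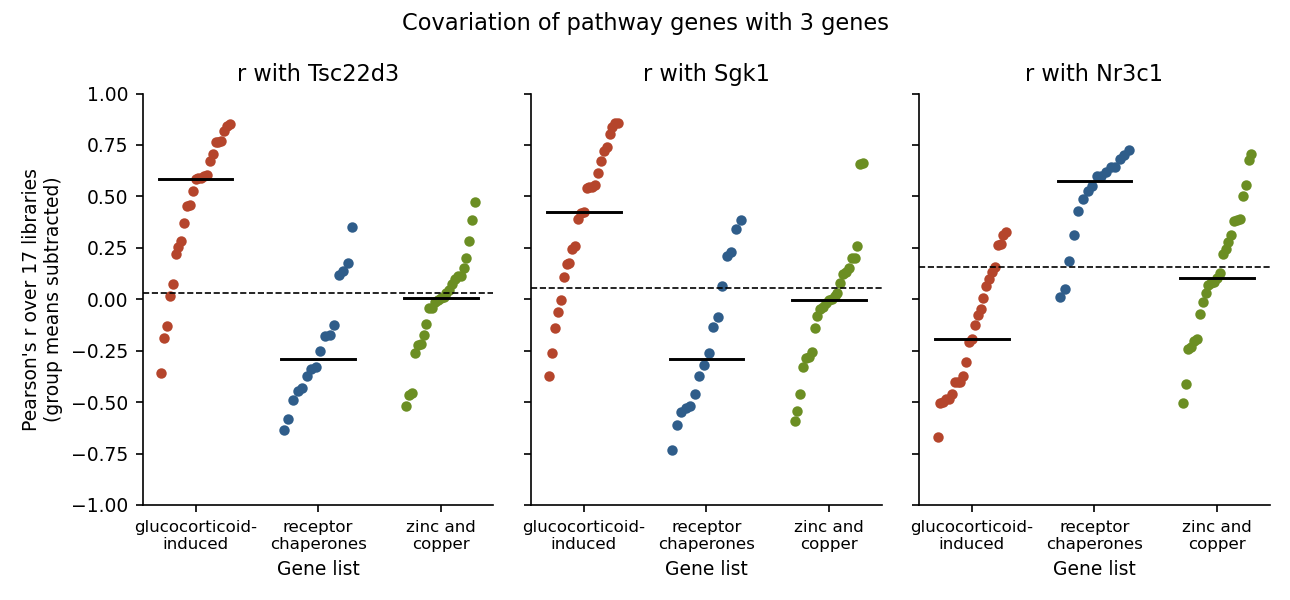
Pearson r over 17 libraries, after subtracting group means, of each tested gene of the glucocorticoid-induced, chaperone, and zinc and copper lists with Tsc22d3, Sgk1 and Nr3c1, 1 point for each gene, with the list median as a bar and the median of all tested genes as a dashed line. With Tsc22d3 22 of 25 glucocorticoid-induced genes lie above 0, beside 54.1% of all tested genes. With Nr3c1 all 16 chaperone genes do, beside 68.6% of all tested genes.

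The genes whose pattern was closest over the 17 libraries, given with no p, were for Tsc22d3 the transcription factor Klf15 (r = 0.947), then Mt2 and Rhob (r = 0.891). For Sgk1 they were Net1 (r = 0.928), Gm19439 (r = 0.923) and Zfp64 (r = 0.898), and for Fkbp5 Prelid3a (r = 0.857), Bloc1s2 (r = 0.824) and Zfp346 (r = 0.824). Mt1 was closest to Etnppl (r = 0.873), Selenop (r = 0.853) and Sult1a1 (r = 0.837). Mt2 was closest to Tsc22d3, then to the myelin gene Cldn11 (r = 0.825) and to Pnpla2 (r = 0.821). Mt3 was closest to Gm15631 (r = 0.818), Tspan7 (r = 0.787) and Bap1 (r = 0.773). Nr3c1 was closest to Gm18190 (r = 0.949), Hadha (r = 0.916) and Bcl2 (r = 0.855), and Fkbp4 to Utp11 (r = 0.891), Brms1l (r = 0.884) and Tra2b (r = 0.883). Nr3c2 was closest to Ndst1 (r = 0.907), Gabbr1 (r = 0.901) and Aars (r = 0.901), and Hsd11b1 to Kcnip2 (r = 0.813), Zfp983 (r = 0.803) and Panx2 (r = 0.786).

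Cell type markers moved with some of these genes. Of 110 relations between the 10 genes and 11 marker lists, 2 passed an adjusted permutation p of 0.05, both with the neuron markers: Nr3c2 with r = 0.748 and Fkbp4 with r = 0.736, each at an adjusted permutation p of 0.0451 but neither by rho. Nr3c1 had r = 0.604 with the neuron markers, which did not pass (adjusted permutation p = 0.208). The oligodendrocyte markers, led by Mbp with means of 1278 TPM after Poly(I:C) and 1155 TPM after saline, had r = 0.658 with Tsc22d3, 0.660 with Mt2 and 0.625 with Sgk1, none past the threshold (adjusted permutation p = 0.101, 0.101 and 0.127). Without Poly(I:C) replicates 5 and 7, which had the lowest and the highest oligodendrocyte levels, these values were 0.381, 0.337 and 0.368. All 12 oligodendrocyte markers were detected; their sum ran from 1654 to 3424 TPM in the Poly(I:C) group and from 1793 to 2376 TPM in the saline group. With the oligodendrocyte markers regressed out of both genes, Tsc22d3 with Mt2 had r = 0.817, Sgk1 with Tsc22d3 0.738, and Sgk1 with Mt2 0.463, which no longer passed (adjusted permutation p = 0.148). The striatal markers had r = 0.644 with Sgk1, 0.523 with Tsc22d3 and 0.459 with Mt2, none past the threshold (adjusted permutation p = 0.101, 0.292 and 0.506). Leaving out Poly(I:C) replicates 4 and 7 took these to 0.411, 0.332 and 0.221. With the striatal markers regressed out, Sgk1 with Mt2 had r = 0.571 and no longer passed (adjusted permutation p = 0.0633). Without replicate 7 of both groups, Tsc22d3 with Mt2 had r = 0.922 and Sgk1 with Tsc22d3 0.809. The pairs Tsc22d3 with Mt2, Sgk1 with Tsc22d3, Nr3c1 with Fkbp4 and Mt1 with Mt3 kept their call in all 27 alternatives run.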

How the data were processed

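Polyadenylated RNA of 17 frontal cortices, 9 Poly(I:C) and 8 saline, was sequenced with a stranded kit, per the labels' protocols. The deposited table holds TPM made by the authors, per gene and library. Per the submitters' processing notes the tools were RSEM 1.2.31, STAR 2.5.1b and Trim Galore 0.4.0, with the mm10 build, and the annotation release is not given in the sources used here. Of 48440 gene identifiers 48058 matched a symbol. TPM keeps no depth, so no count model was used. Genes reaching 1 TPM in 8 or more libraries were tested on log2(TPM + 1) with limma 3.58.1 in R 4.3.3 (trended empirical Bayes, Benjamini-Hochberg over 14144 genes). The fit was tested on simulated data with genes drawn independently: over 10 simulations 4.06% of calls were false. Ratios were tested by exact permutation of the libraries, and correlations by 100000 permutations within groups after subtracting group means. Replicates are separate offspring. The p-values treat them as independent, though the labels do not tie offspring to litters and some may be littermates. The 10 genes, the lists and the tests were chosen with earlier results of these data known. Besides the 10 genes, the text names the 3 tested genes with the smallest unadjusted p in a pathway list, the most abundant gene of a list, and the 3 genes closest to each of the 10; genes named by their r within a list, Slc17a7 and the genes listed at 0 were chosen after their values were seen. Alternatives covered pseudocount, filter, scaling, covariates, tests, the replicate block and each library left out. Opposite-strand genes overlap Nr3c2 (Gm10649, 1.12 TPM) and Hsd11b1 (Lamb3, 0.58 TPM). Sequences were read from RefSeq promoter tables with Python 3.11.15.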

Additional observations from a re-analysis of the deposited data

Results flagged for a closer look

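Each group's values for the 10 genes and the 4 ratios, 28 groups of values in all, were examined for a single library far from the others of its group, by the gap to its nearest neighbour over the whole range. Chance alone would mark a small share of such groups, about 5%, and 3 were marked. Hsd11b1 was 20.9 TPM in Poly(I:C) replicate 7, where the other 8 libraries of the group ran from 12.99 to 16.58 TPM; the gap was 0.547 of the range, against a critical value of 0.493. That library also had the highest oligodendrocyte and striatal marker sums, whose part in the value was not tested. Fkbp4 was 94.9 TPM in Poly(I:C) replicate 9, where the others ran from 70.3 to 82.6 TPM, a gap of 0.501 of the range. The ratio of Fkbp5 to Fkbp4 was 0.0980 in the same library, where the others ran from 0.128 to 0.159, a gap of 0.496 of the range; this ratio shares its Fkbp4 value with the mark before it.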

How the results depend on the processing

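None of the 10 genes passed an adjusted p of 0.05 in any of the 34 alternatives run. Over all genes the count of calls was 0 as reported, 2 after median-of-ratios scaling, 2 with the replicate block and 0 to 1 with single libraries left out. The direction held in all 33 alternatives for Nr3c2, Hsd11b1, Fkbp4, Mt1 and Mt3. Estimates near 0 changed sign. The log2 difference of Fkbp5 became 0.0031 with array weights, 0.026 with the first principal component as a covariate, 0.022 after median-of-ratios, 0.032 after quantile and 0.021 after upper quartile scaling, and 0.0048 by medians with the Mann-Whitney test. That of Nr3c1 became -0.0056 with array weights, -0.016 with the principal component and -0.010 by medians. That of Sgk1 became 0.22 with the principal component, 0.026 after median-of-ratios, 0.019 after quantile and 0.025 after upper quartile scaling, and 0.0018 without mitochondrial genome genes. That of Tsc22d3 became -0.0087 with oligodendrocyte markers as a covariate and -0.016 without replicate 7 of both groups, and that of Mt2 -0.020 in the latter. The replicate block, in which Poly(I:C) replicate 9 has no partner and carries no weight, gave -0.025 for Nr3c1, 0.015 for Fkbp5 and 0.047 for Sgk1 and changed no other call. Deviations of same-numbered libraries correlated at -0.221 to 0.0818 over 8 pairs, and 1 of 16 libraries correlated best with its own number. These values show no strong shared deviation, but they cannot show whether the replicate numbers pair the animals. Leaving out single libraries gave ranges of -0.10 to 0.072 for Sgk1, -0.055 to 0.046 for Fkbp5, -0.025 to 0.030 for Nr3c1, -0.016 to 0.099 for Tsc22d3, -0.087 to -0.025 for Nr3c2, -0.095 to -0.041 for Fkbp4, 0.11 to 0.21 for Hsd11b1, 0.061 to 0.12 for Mt1, 0.011 to 0.092 for Mt2, 0.045 to 0.091 for Mt3, and -0.13 to 0.0071 for the log2 ratio of Sgk1 to Tsc22d3. The count of correlated pairs, 9 as reported, ran from 4 to 12. Of the called pairs, Fkbp5 with Sgk1 lost its call in 17 of 27 alternatives, Mt1 with Mt2 in 12, Sgk1 with Mt2 in 5, Fkbp5 with Mt1 in 3 and Fkbp5 with Tsc22d3 in 1. Regressing marker levels out of the pairs was chosen after seeing the data. The cause of these changes was not tested. The labels state 25000000 reads, but TPM hold no count for each library, so counting noise in the low genes was not measured.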
